A study of Homo sapiens with 26 samples.

Results

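The genes described here encode the 7 ligands of the epidermal growth factor receptor (EGFR), which are AREG, EREG, TGFA, HBEGF, BTC, EPGN and EGF, and the membrane proteases ADAM10 and ADAM17, which release them. They were taken by gene symbol from 2 expression tables of LoVo cells, a human colorectal cancer line, and all 9 were listed among the 18165 genes of the first table and the 17734 of the second. Of the 9 genes, 7 reached the level required for testing in each table, a value of at least 1 FPKM (fragments scaled to transcript length and library size) in at least 2 libraries. EPGN and EGF reached it in neither. The series asks how mutations of PIK3CA, the gene of a phosphoinositide kinase, bear on resistance to palbociclib, which blocks the cell-cycle kinases CDK4 and CDK6 and was used to induce senescence.

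Poly(A) RNA was sequenced in 26 libraries, 13 groups of 2. The first table holds the H1047R mutant line, the E545K mutant line and wild-type (WT) cells, each in 0.5 µM palbociclib, in medium conditioned by senescent cells, or in DMSO, the solvent control. The second table holds the H1047R and E545K lines in 0.5 µM palbociclib with 4 µM erlotinib, an inhibitor of the EGFR kinase, or in 0.5 µM palbociclib alone. All groups were LoVo cells grown in DMEM with 10% fetal bovine serum, and the mutations were introduced with lentiviral vectors. The palbociclib experiment used clone 2# of E545K and clone 3# of H1047R, so each mutation is 1 line, and line and mutation cannot be told apart. Which clones were put in conditioned medium or gave the second table is not given in the sources used here. Treatment with palbociclib or DMSO lasted 72 hours and that with erlotinib 48 hours by the labels, which also mention control cells collected at 48 hours without saying which. They give no duration and no donor cells for the conditioned medium, and no duration for the second table's cells in palbociclib alone.

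EGFR ligands are made as membrane-bound precursors, and metalloproteases of the ADAM family cut them at the cell surface to set the growth factor free. ADAM17 is known as the main sheddase of AREG, EREG, TGFA and HBEGF, and ADAM10 as that of BTC and EGF. The freed ligand binds EGFR on the same or a neighbouring cell, and AREG and EREG are known as the ligands that many colorectal cancers express. The values below are levels of mRNA, and neither shedding nor protein was measured.

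The ligands share an EGF-like fold held by 6 cysteines, and its coding stretch is shown for the 5 ligands that were tested, to show what makes them 1 family. The stretches run 5′ to 3′ from the first to the last of these cysteine codons in the GENCODE v29 principal transcript, with the cysteine codons in capitals.
AREG: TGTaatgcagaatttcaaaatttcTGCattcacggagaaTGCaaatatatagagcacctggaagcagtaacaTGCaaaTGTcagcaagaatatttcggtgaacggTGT
EREG: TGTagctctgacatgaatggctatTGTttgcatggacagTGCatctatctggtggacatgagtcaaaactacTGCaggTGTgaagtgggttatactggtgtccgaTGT
TGFA: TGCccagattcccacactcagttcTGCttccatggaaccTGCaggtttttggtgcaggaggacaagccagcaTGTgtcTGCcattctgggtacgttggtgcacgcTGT
HBEGF: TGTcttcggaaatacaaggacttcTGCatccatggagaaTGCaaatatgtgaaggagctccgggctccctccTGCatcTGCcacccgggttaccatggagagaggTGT
BTC: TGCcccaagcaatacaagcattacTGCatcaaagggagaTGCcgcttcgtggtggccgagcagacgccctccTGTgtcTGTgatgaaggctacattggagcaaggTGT
Each stretch has 108 bases, with the same spacing between the cysteines in all 5. AREG and HBEGF shared 59.3% of the bases, AREG and EREG 50.9%, and TGFA and BTC 63.0%, the highest share among these 5.

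EPGN, EREG, AREG and BTC lie side by side on chromosome 4, within 486.1 kb (positions 74308470 to 74794523, GRCh38.p14), with EPGN, EREG and AREG on the plus strand and BTC on the minus strand. EGF lies farther along chromosome 4, TGFA and ADAM17 on chromosome 2, HBEGF on chromosome 5 and ADAM10 on chromosome 15. The promoters of the 4 ligands whose levels differed most, or that neighbour each other, are shown from 120 bases before to 20 bases after the annotated start (RefSeq, GRCh38.p14). Their positions are chr4:74445016-74445155 on the plus strand for AREG, chr4:74365025-74365164 on the plus strand for EREG, chr5:140346584-140346723 on the minus strand for HBEGF and chr4:74794504-74794643 on the minus strand for BTC. Capitals mark 3 motifs, searched on both strands: the cAMP response element TGACGTCA, the TATA box TATAAA and the GC box GGGCGG or its reverse complement.
AREG: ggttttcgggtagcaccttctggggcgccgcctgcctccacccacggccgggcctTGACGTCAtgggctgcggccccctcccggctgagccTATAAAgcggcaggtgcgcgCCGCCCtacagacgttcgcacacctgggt
EREG: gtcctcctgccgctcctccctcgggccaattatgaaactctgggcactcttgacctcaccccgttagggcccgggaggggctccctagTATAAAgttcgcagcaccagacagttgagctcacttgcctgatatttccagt
HBEGF: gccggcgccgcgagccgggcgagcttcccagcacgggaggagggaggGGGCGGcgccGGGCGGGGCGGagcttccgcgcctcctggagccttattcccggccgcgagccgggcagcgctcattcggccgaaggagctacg
BTC: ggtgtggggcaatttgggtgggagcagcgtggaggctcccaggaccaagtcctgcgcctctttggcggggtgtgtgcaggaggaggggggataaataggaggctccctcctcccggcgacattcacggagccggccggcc
The AREG promoter held a cAMP response element 65 bases before the start, a motif found in 1.85% of 35116 promoter windows of 300 bases, and a TATA box at 29 bases before it, found in 11.53%. EREG held a TATA box at 32 bases before its start. HBEGF held no TATA box and 3 GC boxes in this stretch, of which 2 overlap, a motif in 44.95% of windows, and BTC held none of the 3 motifs there. An AP-1 site (TGANTCA, 7.71% of windows) was not among the letters of any of these 4 windows.

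All libraries expressed markers of the colorectal epithelium, with EPCAM at 181.9 to 417 FPKM, KRT8 at 3436 to 8612 and CDX2 at 18.7 to 89.7, while KRT20 (0.03 to 1.20) and VIL1 (0.20 to 3.76) were low. Markers of other cell types were low: the fibroblast list summed to 1.91 to 20.7 FPKM in the first table, with DCN at 0 in 22 of 26 libraries, the immune list to 0.75 to 2.09 and the endothelial list to 0.10 to 0.52. PIK3CA stood at 4.38 to 7.19 FPKM in H1047R, 7.37 to 16.3 in E545K and 5.38 to 7.23 in WT libraries of the first table, and these values do not separate mutant from normal transcripts. No counts were given, so read depth is unknown. The sum of FPKM per library ran from 441643 to 524290, and 11453 to 12157 genes per library reached 1 FPKM. In the first table the groups H1047R palbociclib and H1047R DMSO had the widest spread between replicates (residual SD 0.23 and 0.17 on the log2 scale, against 0.09 to 0.12 in the other groups), and in the second table H1047R palbociclib did (0.17, against 0.09 to 0.10). Across tested genes WT cells in conditioned medium correlated more closely with H1047R cells in conditioned medium (r = 0.990) and in DMSO (r = 0.986) than with WT cells in DMSO (r = 0.938). The labels do not say whether replicates were separate cultures, so p-values measure only the spread between these samples.

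Changes are log2 ratios on the log2(FPKM + 1) scale, given relative to the median change of all tested genes and called relative log2 changes. The added 1 shrinks the changes of genes near 1 FPKM, such as BTC in WT in DMSO. The size of such changes is therefore not comparable with that of abundant genes such as AREG. The limma test itself is of the change from 0, with Benjamini-Hochberg adjustment over all tested genes, and a gene was called at an adjusted p below 0.05. The subtracted median was 0.26 for H1047R and 0.25 for E545K against WT in DMSO, and 0.20 for E545K against WT under palbociclib. It was 0.14 for palbociclib and 0.29 for conditioned medium in WT, and -0.10 for H1047R against E545K under palbociclib in the first table. Among the differences in response it was -0.17 (palbociclib, H1047R minus WT), -0.27 (conditioned medium, H1047R minus WT) and -0.23 (conditioned medium, E545K minus WT). In the other comparisons it lay within 0.1 of 0.

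Amphiregulin (AREG) and epiregulin (EREG) were the abundant ligand mRNAs, and the other ligands stayed at or below 23.3 FPKM in every library. In DMSO both mutant lines had less AREG and less HBEGF than WT cells and more BTC. AREG had 109 and 129 FPKM in the H1047R libraries and 192 and 199 in the E545K libraries, against 464 and 452 in the WT libraries. The 3 lines did not overlap, with H1047R lowest and WT highest. AREG was lower in H1047R by a relative log2 change of -2.20 (SE 0.10, adjusted p 1.12e-09), and in E545K by -1.48 (SE 0.10, adjusted p 2.21e-07). Heparin-binding EGF-like growth factor (HBEGF), a ligand that also binds ERBB4, stood at 3.69 and 4.06 FPKM in H1047R and 7.60 and 7.94 in E545K, against 13.7 and 13.9 in WT. It followed the order of AREG without overlap, with relative log2 changes of -1.87 in H1047R (SE 0.09, adjusted p 2.16e-09) and -1.01 in E545K (SE 0.09, adjusted p 6.59e-06). Betacellulin (BTC), a ligand of EGFR and ERBB4, ran the other way, at 6.74 and 8.62 FPKM in H1047R and 2.50 and 2.15 in E545K, against 1.10 and 1.28 in WT. H1047R was highest and WT lowest, and the relative log2 change was 1.72 in H1047R (SE 0.12, adjusted p 4.59e-09) and 0.35 in E545K (SE 0.12, adjusted p 0.000669).

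**Figure D1:**
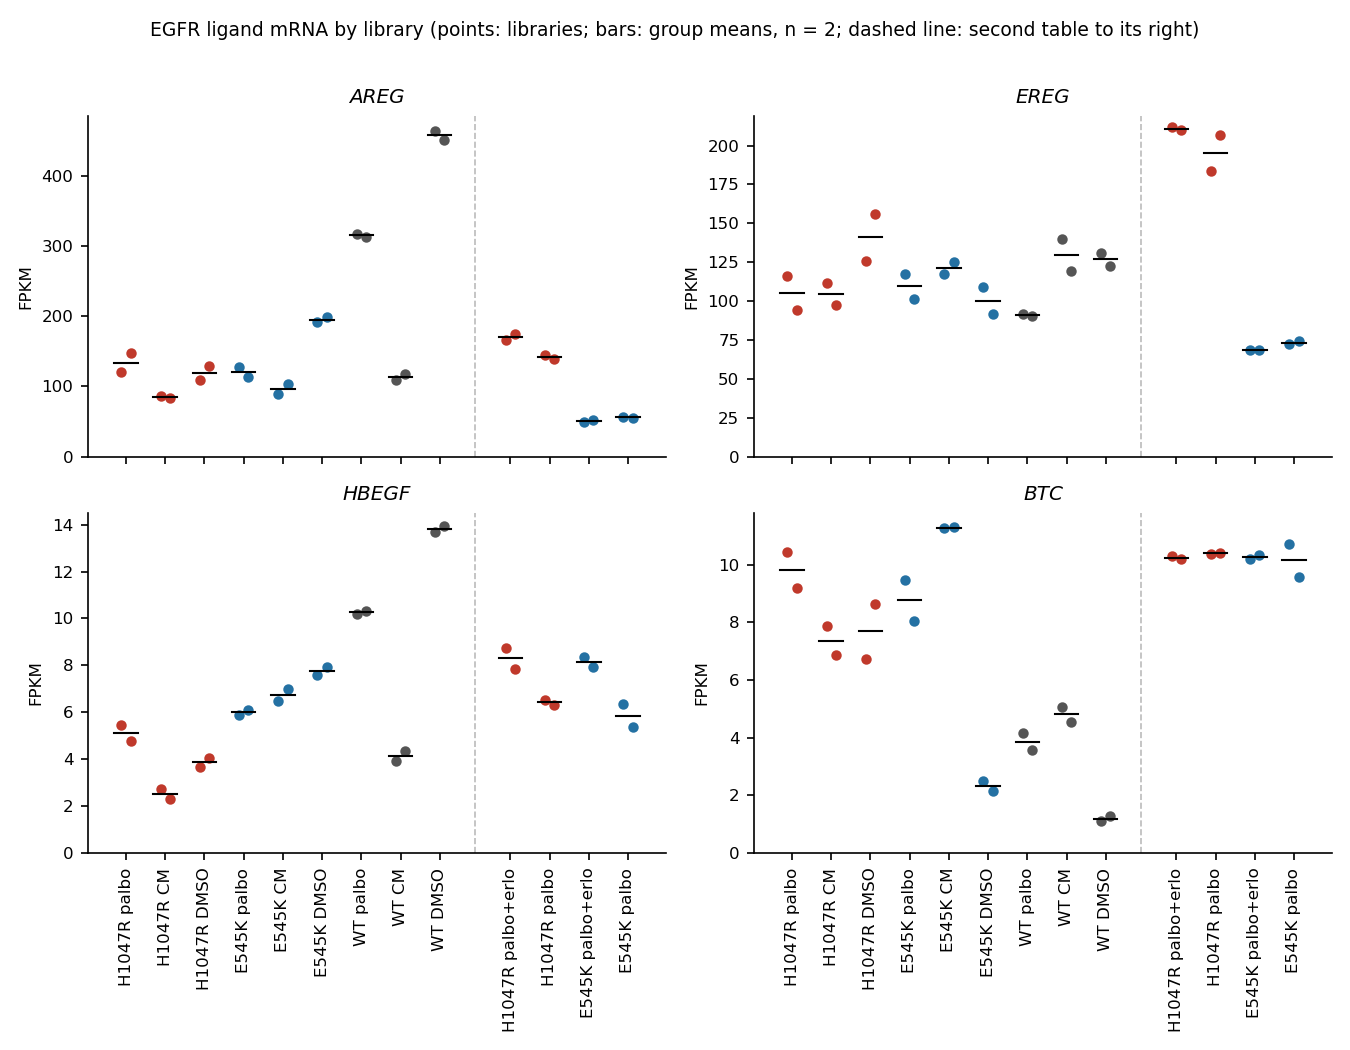
FPKM of AREG, EREG, HBEGF and BTC in each of 26 libraries (points; red H1047R, blue E545K, grey WT) with group means (bars, n = 2); palbo is palbociclib, CM conditioned medium and erlo erlotinib, and the second table stands right of the dashed line. AREG and HBEGF are highest in WT DMSO, where BTC is lowest, and in the second table AREG and EREG separate the H1047R from the E545K libraries.

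EREG in DMSO had 126 and 156 FPKM in H1047R and 109 and 91.6 in E545K, against 131 and 123 in WT. H1047R and WT overlapped, and E545K lay below both. EREG was called lower for E545K (-0.60, SE 0.13, adjusted p 0.031) and not called for H1047R (-0.12, SE 0.13, adjusted p 0.331). Transforming growth factor alpha (TGFA) stood at 11.4 and 10.9 FPKM in H1047R and 16.6 and 15.8 in E545K, against 10.6 and 12.2 in WT. E545K was higher than WT (0.22, SE 0.08, adjusted p 0.000137), and H1047R overlapped WT (-0.29, SE 0.08, adjusted p 0.744). ADAM17 had 12.4 and 12.6 FPKM in H1047R and 13.1 and 11.9 in E545K, against 10.7 and 8.80 in WT, with relative log2 changes of 0.08 (SE 0.10, adjusted p 0.0086) and 0.09 (SE 0.10, adjusted p 0.0101). ADAM10 had 26.6 and 31.6 FPKM in H1047R and 28.8 and 25.9 in E545K, against 22.9 and 21.6 in WT, with relative log2 changes of 0.11 (SE 0.14, adjusted p 0.0288) and 0.03 (SE 0.14, adjusted p 0.0899). The protease levels thus differed from WT by little more than the median gene did.

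In total 5 of 7 tested members were called in H1047R against WT in DMSO, 3 higher and 2 lower, where 67.4% of all tested genes were called, 49.9% higher and 17.5% lower. In E545K 6 of 7 were called, 3 higher and 3 lower, where 58.8% of all genes were, 48.4% higher and 10.4% lower. Both comparisons share the WT DMSO libraries. The split depends on the scaling: with quantile normalization it was 1 higher and 3 lower in H1047R and 1 higher and 2 lower in E545K, and with median-centring 1 higher and 3 lower in each line. TGFA in H1047R was called lower with both (adjusted p 0.00173 and 0.00145), and its call in E545K was lost (0.0545 and 0.107). Neither protease was called in either line with these scalings, and after median-centring the ADAM17 change in H1047R was below 0. Without WT replicate 1, WT replicate 2 or H1047R replicate 2 the ADAM10 call in H1047R was lost (adjusted p 0.0615, 0.124 and 0.203), and without WT replicate 2 the ADAM17 call was (adjusted p 0.133). Markers of other cell types differed too: the fibroblast list summed to 8.83 to 9.22 FPKM in H1047R and 4.67 to 4.85 in E545K, against 4.3 to 4.58 in WT, with COL3A1 called higher in H1047R (adjusted p 1.47e-07). The immune list summed to 1.03 to 2.09, 0.76 to 0.98 and 1.02 to 1.31 FPKM in the same order, with its 1 tested gene, PTPRC, called higher in H1047R at 1.19 ± 0.52 FPKM, against 0.39 ± 0.13 in WT (adjusted p 0.0151). Their part in the ligand differences was not tested. In E545K the EREG call was lost without WT replicate 1, WT replicate 2 or E545K replicate 2 (adjusted p 0.148, 0.0606 and 0.245), and the ADAM17 call without WT replicate 2 or E545K replicate 1 (adjusted p 0.147 and 0.0871). Without the low-value filter the ADAM10 call in H1047R and the EREG call in E545K were lost (adjusted p 0.0572 and 0.0627), and EREG was also lost with quantile normalization (0.0659).

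The same lines were also compared with WT within the other treatments, comparisons chosen after seeing the data, with the same SEs as in DMSO. Under palbociclib AREG and HBEGF were again lower and BTC higher than in WT: AREG by -1.33 in H1047R (adjusted p 1.06e-07) and -1.59 in E545K (adjusted p 2.98e-08), HBEGF by -0.98 (adjusted p 9.6e-07) and -0.89 (adjusted p 1.01e-05), and BTC by 1.06 (adjusted p 1.33e-06) and 0.80 (adjusted p 4.53e-06). With ADAM10 lower in H1047R (-0.49, adjusted p 0.0225), 4 of 7 members were called in H1047R and 3 in E545K, where 62.5% (38.5% higher, 24.1% lower) and 65.1% (45.7% higher, 19.4% lower) of all genes were. In conditioned medium 3 members were called in each line, where 8.38% of all genes were called in H1047R (3.06% higher, 5.31% lower) and 33.9% in E545K (18.1% higher, 15.8% lower). In H1047R they were AREG (-0.41, adjusted p 0.0197), HBEGF (-0.55, adjusted p 0.00124) and BTC (0.52, adjusted p 0.0145). In E545K HBEGF was higher than in WT (0.56, adjusted p 0.000149), as were BTC (1.05, adjusted p 8.42e-06) and TGFA (0.46, adjusted p 0.000223), and AREG was not called (-0.26, adjusted p 0.0988). After quantile normalization 3 members were higher and 1 lower in E545K in conditioned medium. Under palbociclib the E545K calls were 1 higher and 2 lower, against 1 and 3 with quantile normalization and 1 and 4 with median-centring.

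With palbociclib BTC rose in all 3 lines, HBEGF rose in H1047R and fell in E545K and WT, and AREG fell in E545K and WT and was not called in H1047R. AREG had 121 and 147 FPKM with palbociclib in H1047R, against 109 and 129 in DMSO; 127 and 114 in E545K, against 192 and 199; and 318 and 314 in WT, against 464 and 452. The E545K and WT libraries did not overlap their controls and the H1047R libraries did. AREG fell in E545K (relative log2 change -0.78, SE 0.10, adjusted p 4.91e-05) and in WT (-0.67, SE 0.10, adjusted p 0.00108), and it was not called in H1047R (0.19, SE 0.10, adjusted p 0.205; without H1047R palbociclib replicate 1 the adjusted p was 0.0197). HBEGF had 5.45 and 4.78 FPKM with palbociclib in H1047R, against 3.69 and 4.06; 5.87 and 6.12 in E545K, against 7.60 and 7.94; and 10.2 and 10.3 in WT, against 13.7 and 13.9. No line overlapped its control: HBEGF rose in H1047R (0.35, SE 0.09, adjusted p 0.0111) and fell in E545K (-0.41, SE 0.09, adjusted p 0.00715) and WT (-0.53, SE 0.09, adjusted p 0.0039).

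BTC had 10.4 and 9.19 FPKM in H1047R, against 6.74 and 8.62 in DMSO; 9.48 and 8.04 in E545K, against 2.50 and 2.15; and 4.15 and 3.57 in WT, against 1.10 and 1.28. No treated library overlapped its control. The rise was 0.35 for H1047R (SE 0.12, adjusted p 0.0474), 1.47 for E545K (SE 0.12, adjusted p 1.53e-07) and 1.01 for WT (SE 0.12, adjusted p 1.12e-05). TGFA had 18.3 and 18.8 FPKM in H1047R, against 11.4 and 10.9; 18.0 and 16.1 in E545K, against 16.6 and 15.8; and 17.3 and 17.7 in WT, against 10.6 and 12.2. It rose in H1047R (0.72, SE 0.08, adjusted p 1.38e-05) and WT (0.44, SE 0.08, adjusted p 8.88e-05) and was not called in E545K (-0.01, adjusted p 0.479). Treated cells of the 3 lines lay between 16.1 and 18.8 FPKM. EREG fell to 116 and 94.3 FPKM in H1047R, against 126 and 156 (-0.39, SE 0.13, adjusted p 0.0177), and to 91.7 and 90.2 in WT, against 131 and 123 (-0.61, SE 0.13, adjusted p 0.0101). In E545K it had 118 and 101 FPKM, against 109 and 91.6, which overlap (0.05, adjusted p 0.417).

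ADAM10, with 25.4 and 17.0 FPKM in H1047R under palbociclib, against 26.6 and 31.6 in DMSO, was called lower there (-0.43, SE 0.14, adjusted p 0.0175), a call that rests on palbociclib replicate 2 and DMSO replicate 2 (adjusted p 0.246 and 0.158 without them). ADAM17 was called in WT (0.15, SE 0.10, adjusted p 0.0417), at 12.4 and 11.7 FPKM with palbociclib, against 10.7 and 8.80 in DMSO. Over the list 5 of 7 tested members were called in H1047R, 3 higher and 2 lower, where 39.3% of all tested genes were called, 19.5% higher and 19.8% lower. In E545K 3 were called, 1 higher and 2 lower, where 52.2% of all genes were, 32.9% higher and 19.3% lower. In WT 6 were called, 3 higher and 3 lower, where 34% of all genes were, 27.2% higher and 6.77% lower, and with quantile normalization or median-centring it was 2 higher and 3 lower. Several calls rested on single libraries. In H1047R those of EREG were lost without DMSO replicate 2 or palbociclib replicate 2 (adjusted p 0.201 and 0.162), of HBEGF without DMSO replicate 1 (0.0626) and of BTC without DMSO replicate 1 or palbociclib replicate 1 (0.333 and 0.165). The BTC call there was also lost without the low-value filter (0.0803) and with a pseudocount of 0.1 (0.0631), as was the ADAM17 call in WT without the filter (0.0612). When only the H1047R palbociclib and DMSO libraries entered the fit, 1 member was called. In E545K the HBEGF call was lost without DMSO replicate 2 (adjusted p 0.0523). In WT the EREG call was lost without DMSO replicate 1 or palbociclib replicate 2 (0.0748 and 0.057), and the ADAM17 call without DMSO replicate 2 or either palbociclib replicate (0.362, 0.201 and 0.0872). The fibroblast list summed to 6.17 to 6.76 FPKM with palbociclib in H1047R, against 8.83 to 9.22 in DMSO, to 5.1 to 5.16 in E545K, against 4.67 to 4.85, and to 4.41 to 4.58 in WT, against 4.3 to 4.58. Its part in these changes was not tested.

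**Figure D2:**
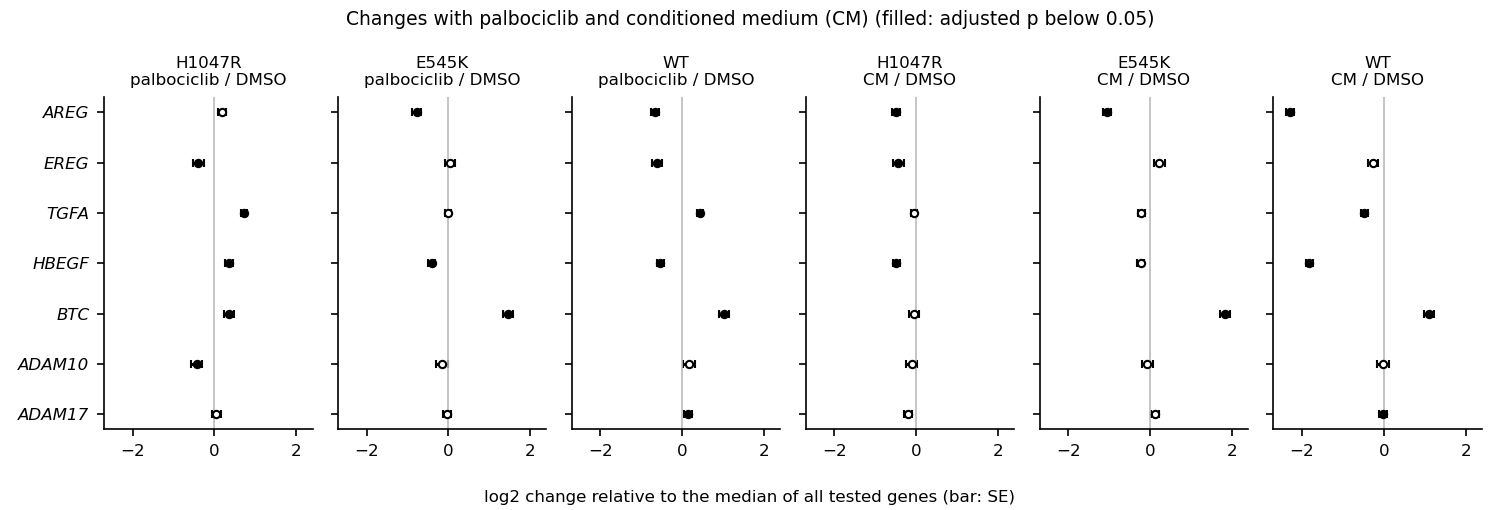
Relative log2 change (horizontal axis; bars are SE) of the 7 tested members with palbociclib (left 3 panels) and conditioned medium (CM, right 3 panels), each against DMSO of the same line; filled points are calls at an adjusted p below 0.05. BTC is called higher in all panels but H1047R with conditioned medium, by 1.84 in E545K with conditioned medium, and AREG changes by -2.30 in WT with conditioned medium.

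AREG was lower in conditioned medium in all 3 lines. Whether the libraries labelled WT in conditioned medium are WT cells could not be checked. Their profile lay nearest to H1047R groups, and FPKM does not show the PIK3CA sequence. Each result for WT in conditioned medium, above and below, and each difference of a mutant line from it, depends on that label. AREG had 85.8 and 83.8 FPKM in H1047R, against 109 and 129 in DMSO; 89.6 and 104 in E545K, against 192 and 199; and 109 and 118 in WT, against 464 and 452. No line overlapped its control, with changes of -0.49 for H1047R (SE 0.10, adjusted p 0.00635), -1.06 for E545K (SE 0.10, adjusted p 1e-06) and -2.30 for WT (SE 0.10, adjusted p 5.38e-10). HBEGF fell in H1047R, to 2.72 and 2.31 FPKM, against 3.69 and 4.06 (-0.48, SE 0.09, adjusted p 0.00335), and in WT, to 3.93 and 4.36, against 13.7 and 13.9 (-1.82, SE 0.09, adjusted p 2.29e-09). In E545K it had 6.47 and 7.01 FPKM, against 7.60 and 7.94 (-0.23, SE 0.09, adjusted p 0.1). BTC rose in E545K, to 11.3 and 11.3 FPKM, against 2.50 and 2.15 (1.84, SE 0.12, adjusted p 1.33e-08), and in WT, to 5.08 and 4.54, against 1.10 and 1.28 (1.12, SE 0.12, adjusted p 1.04e-07). In H1047R it had 7.87 and 6.86 FPKM, against 6.74 and 8.62, which overlap (-0.06, adjusted p 0.837).

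EREG fell in H1047R, to 112 and 97.4 FPKM, against 126 and 156 (-0.43, SE 0.13, adjusted p 0.0374, and 0.0776 without the low-value filter), and TGFA fell in WT, to 10.0 and 9.82 FPKM, against 10.6 and 12.2 (-0.48, SE 0.08, adjusted p 0.0484). In all, 3 of 7 members were called in H1047R, all lower, where 14.6% of all tested genes were called, 8.65% higher and 5.97% lower. In E545K 2 were called, 1 higher and 1 lower, where 57.3% of all genes were, 32.4% higher and 24.9% lower, and with quantile normalization or median-centring this became 1 higher and 3 lower. EREG in E545K (0.23, adjusted p 0.0727) was called without DMSO replicate 1 (0.0395). In WT 5 were called, 2 higher and 3 lower, where 70.5% of all genes were, 51.9% higher and 18.6% lower, against 1 higher and 3 lower with quantile normalization and 1 higher and 4 lower with median-centring. One of the WT calls was ADAM17, whose log2 change from 0 passed the test (adjusted p 0.0245) while its change relative to the median gene was -0.02. In H1047R the AREG call was lost without DMSO replicate 2 or conditioned-medium replicate 2 (adjusted p 0.0637 and 0.054), the HBEGF call without conditioned-medium replicate 2 (0.0528), and the EREG call without DMSO replicate 2 or either conditioned-medium replicate (0.269, 0.0703 and 0.255). With only these 4 libraries in the fit, 1 member was called in H1047R. In WT the TGFA call was lost without DMSO replicate 2 or either conditioned-medium replicate (0.407, 0.0971 and 0.144), and likewise that of ADAM17 (0.276, 0.0935 and 0.0632). COL3A1, a collagen of fibroblasts, also differed between these groups, at 18.5 ± 1.65 FPKM in WT cells in conditioned medium and 3.47 ± 0.15 in WT in DMSO (SD, n = 2 each), while DCN, another fibroblast gene, was at or below 0.04 in all libraries. The fibroblast list, with 4 of 5 genes measured and 1 called, COL3A1, summed to 18.6 to 20.7 FPKM in WT in conditioned medium and 4.3 to 4.58 in WT in DMSO. In H1047R it summed to 12.5 to 12.9 and 8.83 to 9.22 FPKM, and in E545K to 1.91 to 2.32 and 4.67 to 4.85. PTPRC, the immune gene tested, was called higher in WT in conditioned medium, at 0.98 ± 0.11 FPKM, against 0.39 ± 0.13 in DMSO (adjusted p 0.0422). The part of these genes in the ligand changes was not tested. The levels of AREG and HBEGF in WT cells in conditioned medium overlapped those in H1047R cells in DMSO, the group their profile also resembled. The comparison rests on these WT libraries, and the part of that resemblance in it was not tested. In bulk RNA, fewer cells that make a transcript and less transcript per cell cannot be told apart.

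The responses themselves were compared between lines, as a difference of log2 changes, with the WT DMSO and WT treated libraries shared between both mutants. For palbociclib 4 of 7 members differed between H1047R and WT, where 22.6% of all tested genes did, 5.16% higher and 17.4% lower. The relative difference, H1047R minus WT, was 0.87 for AREG (SE 0.14, adjusted p 0.0051), 0.89 for HBEGF (SE 0.13, adjusted p 0.00245), -0.66 for BTC (SE 0.17, adjusted p 0.00589) and -0.59 for ADAM10 (SE 0.20, adjusted p 0.0151). When only these groups entered the fit, 1 of the 4 remained, HBEGF, and ADAM10 was lost without WT DMSO replicate 2, H1047R DMSO replicate 2 or WT palbociclib replicate 1 (adjusted p 0.0579, 0.0644 and 0.0665). ADAM17 was called without H1047R palbociclib replicate 1 (adjusted p 0.0281). For E545K minus WT 2 members differed, EREG (0.65, SE 0.18, adjusted p 0.0232) and TGFA (-0.46, SE 0.11, adjusted p 0.0043), where 25.7% of all genes did, 10.9% higher and 14.7% lower. The EREG call was lost without any of 5 of the 8 libraries, which are WT DMSO replicate 1, E545K DMSO replicate 2, both WT palbociclib replicates and E545K palbociclib replicate 1 (adjusted p 0.081, 0.103, 0.0577, 0.0672 and 0.107), and it was lost without the low-value filter. AREG was not called in that comparison (-0.12, SE 0.14, adjusted p 0.459).

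For conditioned medium 5 of 7 members differed between H1047R and WT, where 50.9% of all genes did, 10.4% higher and 40.5% lower. Of the 5, 2 were higher and 3 lower (3 and 1 with quantile normalization and with median-centring). Between E545K and WT 3 differed, all higher, where 47.1% of all genes did, 10% higher and 37.1% lower. AREG fell less in the mutants, by a relative difference of 1.80 in H1047R (SE 0.14, adjusted p 1.36e-06) and 1.23 in E545K (SE 0.14, adjusted p 6.05e-05). HBEGF did too, by 1.33 in H1047R (SE 0.13, adjusted p 1.23e-05) and 1.57 in E545K (SE 0.13, adjusted p 1.77e-06). The BTC response was lower in H1047R than in WT (-1.18, SE 0.17, adjusted p 1.01e-05) and higher in E545K than in WT (0.71, SE 0.17, adjusted p 0.0329). The last of these was lost without WT DMSO replicate 2, E545K DMSO replicate 2, WT conditioned-medium replicate 2 or either E545K conditioned-medium replicate (adjusted p 0.108, 0.115, 0.11, 0.0739 and 0.0766), without the low-value filter (0.0579) and with a pseudocount of 0.1 (0.241). TGFA was called higher in the H1047R response with quantile normalization and with median-centring (adjusted p 0.00522 and 0.00562), and EREG in the E545K response with median-centring (0.0324). The EREG and ADAM17 responses were lower in H1047R, by -0.18 (adjusted p 0.048) and -0.19 (adjusted p 0.0136), and both calls were lost with quantile normalization and with median-centring. The EREG call was also lost without the low-value filter (0.09) and without either WT DMSO replicate, H1047R DMSO replicate 2, WT conditioned-medium replicate 1 or H1047R conditioned-medium replicate 2 (adjusted p 0.0659, 0.133, 0.201, 0.183 and 0.173), and the ADAM17 call without WT DMSO replicate 2 or H1047R conditioned-medium replicate 1 (0.0794 and 0.0554).

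The order of the groups summarises these levels. For AREG the order in the first table was WT DMSO, WT palbociclib, E545K DMSO, then H1047R palbociclib, E545K palbociclib, H1047R DMSO and WT conditioned medium, whose neighbours overlap, and last E545K and H1047R in conditioned medium. For BTC the order began with E545K conditioned medium at 11.3 FPKM and ended with E545K DMSO at 2.33 and WT DMSO at 1.19. For EREG every neighbour in the order overlapped the next, between means of 141 and 90.9 FPKM, a range of group means much narrower than that of AREG (84.8 to 458 FPKM). EPGN, epigen, stayed at 0.07 to 0.49 FPKM in the first table and 0.30 to 0.42 in the second, and EGF itself at 0.01 to 0.18 and 0.02 to 0.12. No change is read from either at these levels.

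Summed over the 7 ligands, WT cells in DMSO had 612 ± 13.5 FPKM (SD, n = 2), of which AREG held 74.9%. The sum was 283 ± 36.5 FPKM in H1047R and 322 ± 7.71 in E545K in DMSO, with AREG at 42.1% and 60.7%. With palbociclib the sum was 273 ± 2.23 FPKM in H1047R, 262 ± 23.0 in E545K and 439 ± 4.12 in WT. In conditioned medium the sums of the 3 lines were 210.4 ± 13.2, 251 ± 16.2 and 262 ± 8.53 FPKM in the same order, with AREG at 40.4%, 38.5% and 43.2%. The E545K and WT libraries overlapped, and the H1047R libraries lay below them. AREG was thus the larger of the 2 abundant ligands in WT DMSO, at 3.61 times the EREG level, and the smaller of them in WT in conditioned medium, at 0.88 times. TGFA, HBEGF and BTC together made up the rest, and BTC had its largest share in the first table in E545K in conditioned medium, at 4.50%.

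**Figure D3:**
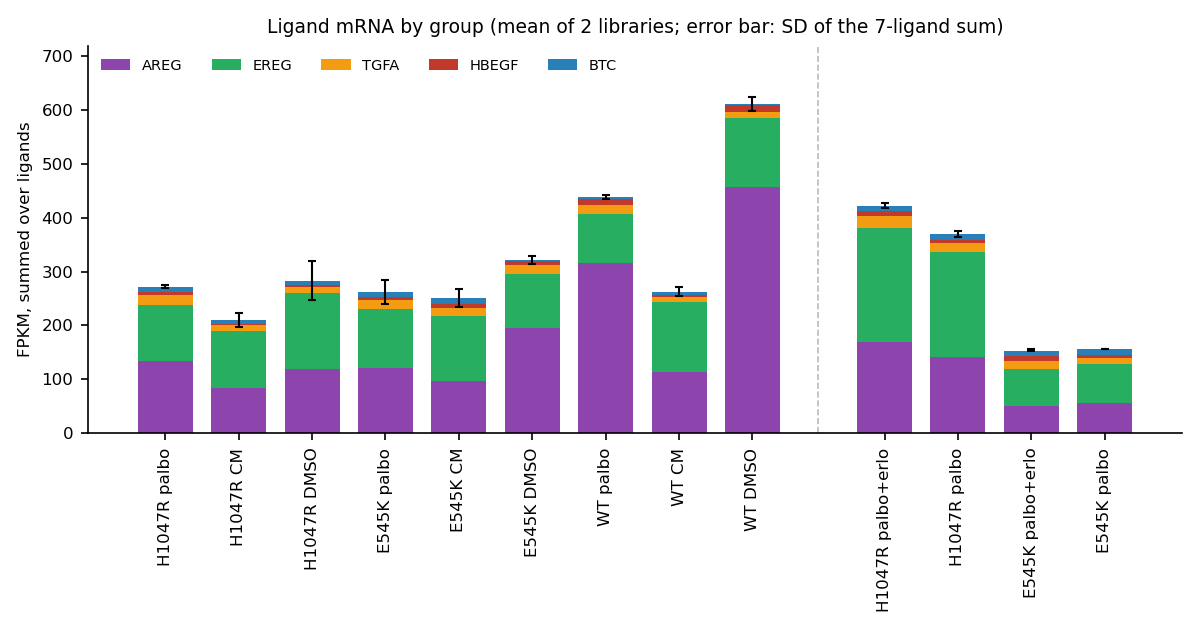
Sum of the ligand FPKM by group, stacked by ligand (group means; error bars are the SD of the sum over 2 libraries; EPGN and EGF, together under 1 FPKM, are too small to draw); CM is conditioned medium. WT DMSO is tallest at 612 FPKM, with AREG at 74.9% of it, and in the second table both E545K groups lie below both H1047R groups.

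In the first table palbociclib-treated H1047R and E545K cells did not differ in any tested member by the limma test: 0 of 7 were called, where 16.3% of all tested genes were, 4.75% higher and 11.5% lower. At an unadjusted p below 0.05 there were 2, HBEGF (-0.09, p 0.0467) and ADAM10 (-0.20, p 0.0466). AREG had 121 and 147 FPKM in H1047R and 127 and 114 in E545K, which overlap, with a relative log2 change of 0.25 (SE 0.10, adjusted p 0.323). EREG had 116 and 94.3 FPKM in H1047R and 118 and 101 in E545K (0.04, SE 0.13, adjusted p 0.752). These values rest on H1047R palbociclib replicate 1: without it AREG, HBEGF and ADAM10 were called (adjusted p 0.0356, 0.0393 and 0.00104).

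In the second table, with clones and hours not given, AREG and EREG were higher in the H1047R than in the E545K libraries at the same palbociclib dose. EREG had 184 and 207 FPKM in H1047R, against 72.1 and 74.4 in E545K, and AREG had 145 and 139, against 56.1 and 55.6. The libraries of the 2 lines did not overlap, with relative log2 changes of 1.44 for EREG (SE 0.06, adjusted p 1.02e-06) and 1.37 for AREG (SE 0.05, adjusted p 6.15e-07). ADAM17, the sheddase of both, had 19.7 and 22.5 FPKM in H1047R, against 12.2 and 13.4 in E545K (0.72, SE 0.07, adjusted p 0.000154). TGFA had 19.9 and 12.3 FPKM in H1047R, against 10.6 and 10.9 in E545K (0.55, SE 0.17, adjusted p 0.035), and this call was lost without either E545K replicate (adjusted p 0.129 and 0.11), without the low-value filter (0.0843) and in a fit of these groups alone (0.0993). In all 4 of 7 members were called, all higher in H1047R, where 51.6% of all genes were called, 21.5% higher and 30.1% lower. HBEGF (0.16, adjusted p 0.3), BTC (0.08, adjusted p 0.716) and ADAM10 (-0.08, adjusted p 0.15, and 0.0237 without H1047R replicate 2) were not called, and BTC lay between 9.57 and 10.7 FPKM in all 8 libraries. The tables were processed separately, so the levels are not compared between them. The fibroblast list summed to 1.91 to 3.68 FPKM in H1047R and 5.29 to 9.11 in E545K under palbociclib in the second table, and its part was not tested.

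With erlotinib added to palbociclib in the second table, 1 of 7 members was called in each line. Of all tested genes 9.36% were called in H1047R (3.01% higher, 6.35% lower) and 16.2% in E545K (7.1% higher, 9.11% lower). The member counts are thus near the background. AREG rose in H1047R, to 166 and 174 FPKM, against 145 and 139 with palbociclib alone (0.29, SE 0.05, adjusted p 0.0205). In E545K it had 48.9 and 52.0 FPKM, against 56.1 and 55.6 (-0.14, SE 0.05, adjusted p 0.0973). HBEGF had 8.76 and 7.83 FPKM in H1047R, against 6.54 and 6.31 (0.36, SE 0.09, adjusted p 0.0595), and 8.36 and 7.94 in E545K, against 6.35 and 5.36 (0.42, SE 0.09, adjusted p 0.0179). The treated libraries lay above their controls in both lines, and HBEGF was called in E545K. TGFA had 22.1 and 23.3 FPKM in H1047R, against 19.9 and 12.3, and 15.6 and 16.0 in E545K, against 10.6 and 10.9. Neither was called (0.54, adjusted p 0.0964, and 0.52, adjusted p 0.0761), and without H1047R palbociclib replicate 1, at 19.9 FPKM, the H1047R adjusted p was 8.5e-05. ADAM17 had 25.3 and 24.7 FPKM in H1047R, against 19.7 and 22.5 (0.27, SE 0.07, adjusted p 0.0813), a value that was called without palbociclib replicate 2 (adjusted p 0.0163).

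The AREG call in H1047R was lost without either of the erlotinib replicates (adjusted p 0.0783 and 0.171), and when only the 4 H1047R libraries entered the fit no member was called (115 genes of all tested were). With quantile normalization or median-centring 3 members were called there, AREG, HBEGF and ADAM17. EREG and HBEGF in H1047R were called without palbociclib replicate 2 and replicate 1, in that order (adjusted p 0.0195 and 0.0375). In E545K the HBEGF call was lost without palbociclib replicate 2 or either erlotinib replicate (adjusted p 0.127, 0.126 and 0.0882), while 3 members were called with only the E545K libraries in the fit. The fibroblast list summed to 1.01 to 1.1 FPKM with erlotinib in H1047R, against 1.91 to 3.68 with palbociclib alone, and to 1.11 to 1.2 in E545K, against 5.29 to 9.11, and its part was not tested. The difference of the erlotinib responses, H1047R minus E545K, was called for 1 of 7 members, AREG (0.44, SE 0.07, adjusted p 0.0334), where 2.17% of all genes were, 0.899% higher and 1.27% lower. It was lost without the low-value filter (adjusted p 0.0672) and without 6 of the 8 libraries, both E545K palbociclib replicates (adjusted p 0.139 and 0.137), both E545K erlotinib replicates (0.172 and 0.11) and both H1047R erlotinib replicates (0.111 and 0.179). Without H1047R palbociclib replicate 1 or 2 the TGFA difference was called in opposite directions (log2 0.32 and -0.33, adjusted p 0.0298 and 0.0392), and without replicate 2 EREG was called (adjusted p 0.0157).

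**Figure D4:**
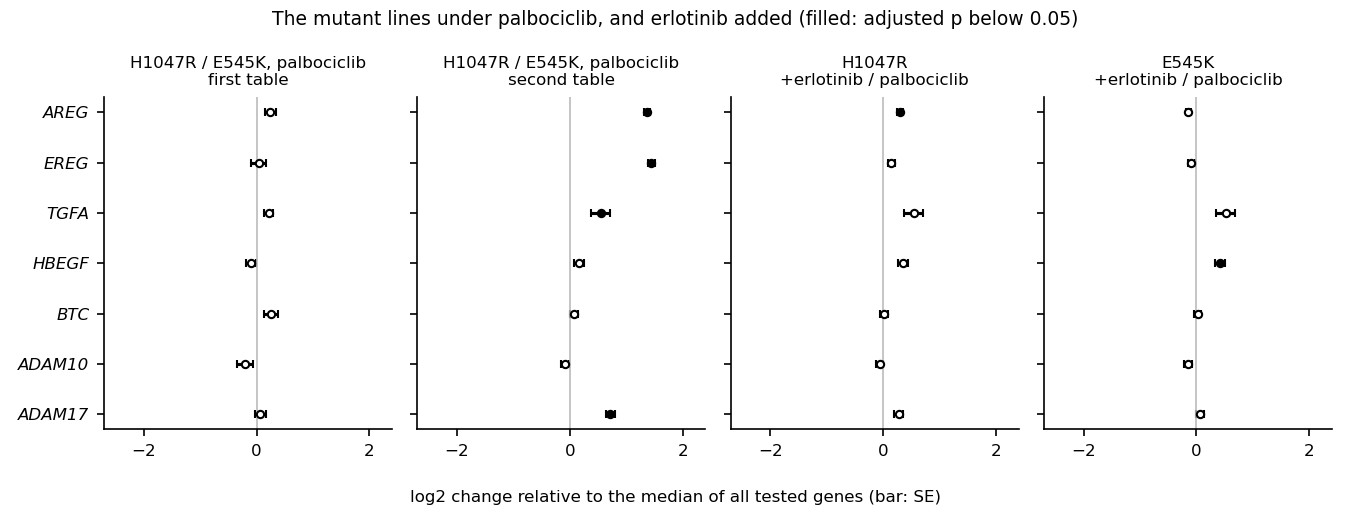
Relative log2 change (horizontal axis; bars are SE) of the 7 tested members in H1047R against E545K under palbociclib in each table (left panels) and with erlotinib added to palbociclib in each line (right panels); filled points are calls at an adjusted p below 0.05. EREG and AREG differ by 1.44 and 1.37 between the lines in the second table and by 0.04 and 0.25, not called, in the first.

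**Figure D5:**
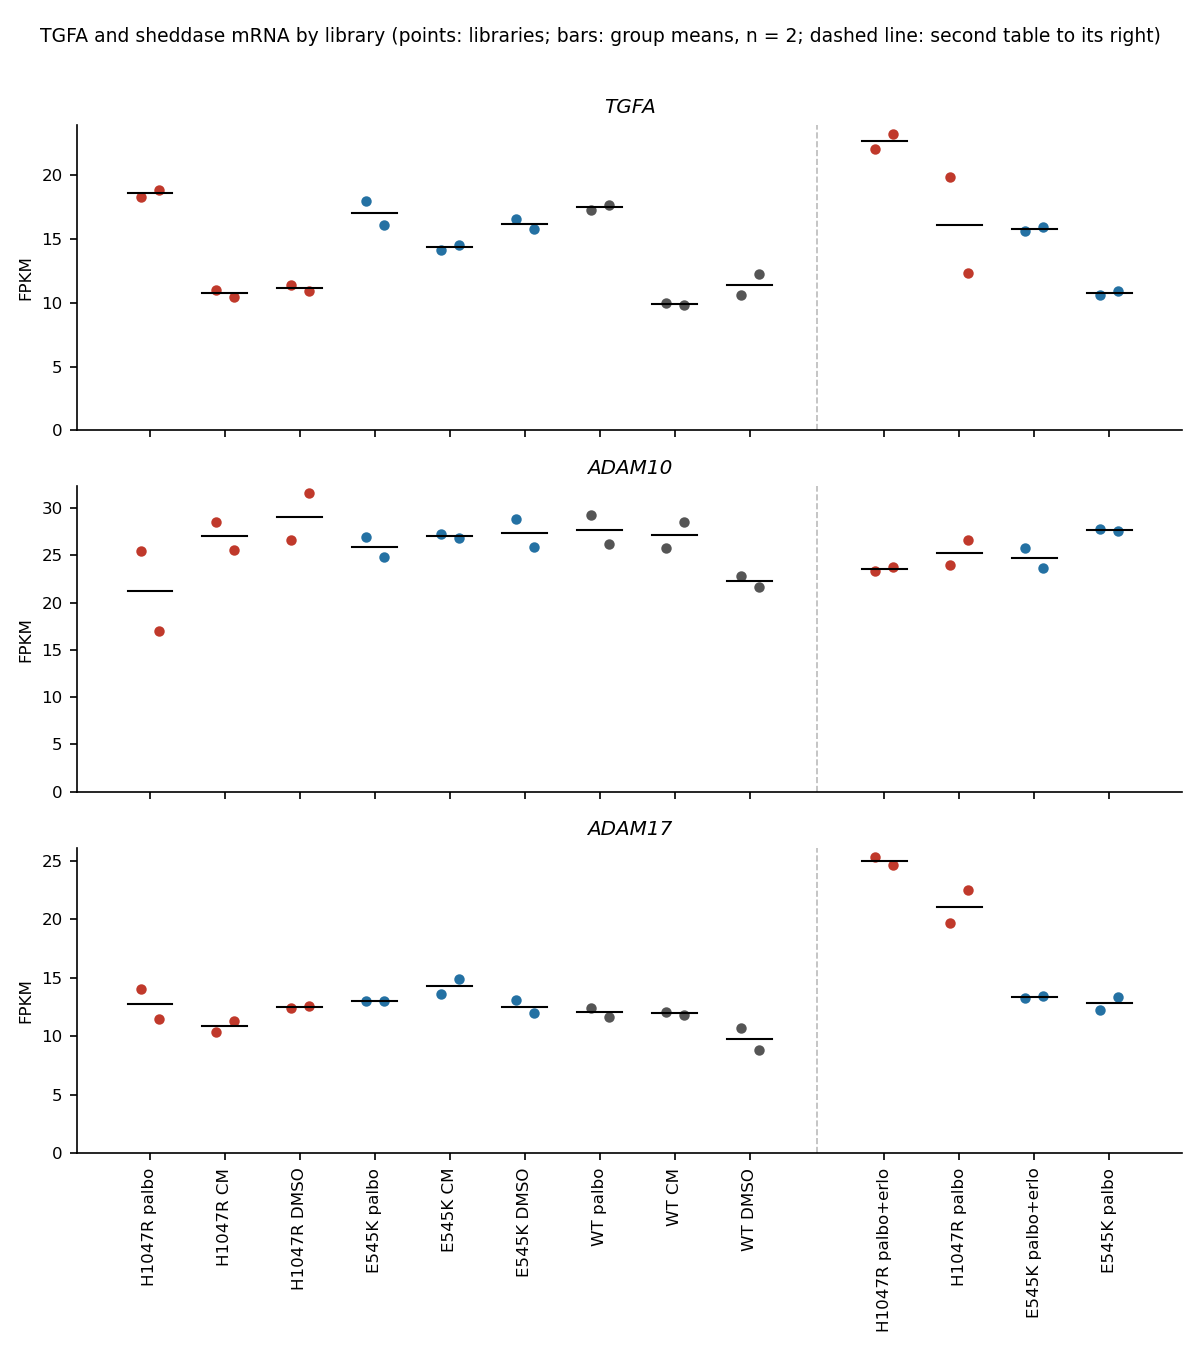
FPKM of TGFA, ADAM10 and ADAM17 in each library (points; red H1047R, blue E545K, grey WT) with group means (bars, n = 2); palbo is palbociclib, CM conditioned medium and erlo erlotinib. ADAM10 stays between 17.0 and 31.6 FPKM in the first table, and ADAM17 is higher in H1047R than in E545K in the second.

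The receptors are EGFR, ERBB2, ERBB3 and ERBB4, tyrosine kinases that pair after a ligand binds, and 3 of 4 were tested, ERBB4 being too low. All 3 were higher in DMSO in each mutant line than in WT, where 49.9% of all tested genes were higher in H1047R and 48.4% in E545K. EGFR had 49.7 ± 0.33 FPKM in H1047R and 74.8 ± 2.28 in E545K, against 24.0 ± 2.22 in WT (SD, n = 2 each), relative log2 changes of 0.76 (adjusted p 3.22e-05) and 1.35 (adjusted p 7.99e-07). ERBB3, a receptor with little kinase activity of its own, had 38.0 ± 3.63 FPKM in H1047R and 25.3 ± 0.41 in E545K, against 16.6 ± 0.52 in WT (0.88, adjusted p 1.71e-08, and 0.33, adjusted p 2.79e-05). These receptor counts were 3 higher and 0 lower under both other scalings too. All 3 were likewise called higher in WT with palbociclib and with conditioned medium, with EGFR at 41.0 ± 0.94 and 46.1 ± 2.11 FPKM, but only 1 of the 3 with either other scaling. Of 12607 tested genes 3434 were higher in WT with palbociclib and 6537 with conditioned medium. With erlotinib EGFR rose in E545K, to 108 ± 1.10 FPKM, against 71.0 ± 1.11 with palbociclib alone (0.60, adjusted p 0.004), and ERBB3 did too (0.30, adjusted p 0.0241), while limma called 0 of 3 in H1047R, where ERBB3 alone had an unadjusted p below 0.05 (0.0182). Of 12463 tested genes 885 were higher and 1135 lower with erlotinib in E545K, and 375 and 792 in H1047R. Of the neuregulins, the ligands of ERBB3 and ERBB4, 1 of 4 was tested, NRG4, and limma called it in 0 comparisons, with 0 at an unadjusted p below 0.05.

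Among 15 partners and inhibitors of the sheddases 14 were tested. The iRhoms RHBDF1 and RHBDF2, which carry ADAM17 to the cell surface, changed in opposite directions. RHBDF1 had 15.9 ± 0.91 FPKM in H1047R and 17.3 ± 0.18 in E545K, against 34.7 ± 1.23 in WT in DMSO (-1.34, adjusted p 2.06e-06, and -1.21, adjusted p 1.18e-05). RHBDF2 had 4.39 ± 0.78 and 4.29 ± 0.42 FPKM, against 1.55 ± 0.08 (0.81, adjusted p 2.16e-06, and 0.80, adjusted p 5.11e-06). TIMP3, the inhibitor of ADAM17, had 1.72 ± 0.12 FPKM in H1047R and 2.99 ± 0.09 in E545K, against 8.10 ± 0.13 in WT (-2.01, adjusted p 2.79e-09, and -1.44, adjusted p 2.84e-07). The list as a whole had 7 higher and 5 lower in H1047R and 11 higher and 2 lower in E545K, with median relative log2 changes of -0.13 and 0.19, where the median of all genes is 0 by construction. Of all tested genes 49.9% were higher and 17.5% lower in H1047R, and 48.4% and 10.4% in E545K, so the 7 of 14 higher in H1047R are near the background. The higher counts rest on the scaling, with 4 higher and 6 lower in H1047R and 7 and 2 in E545K after quantile normalization, and 2 and 6 and 4 and 2 after median-centring.

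With palbociclib 8 of the 14 partners were higher and 0 lower in H1047R (7 and 1 with quantile normalization), 4 higher and 4 lower in E545K (2 and 7 with median-centring), and 11 higher and 0 lower in WT (7 and 4 higher with quantile normalization and median-centring). Of all tested genes 19.5% were higher and 19.8% lower in H1047R, 32.9% and 19.3% in E545K, and 27.2% and 6.77% in WT. FRMD8, which stabilises the iRhom and ADAM17 complex, had 83.8 ± 1.37 FPKM with palbociclib in H1047R, against 43.4 ± 7.11 (0.97, adjusted p 2.92e-06), and 53.8 ± 1.52 in WT, against 33.1 ± 1.39 (0.55, adjusted p 7.35e-05). PCSK7, a protease of the furin family, which ripens ADAM precursors, rose in all 3 lines (0.88 in H1047R, adjusted p 9.71e-06; 0.51 in E545K, adjusted p 9.28e-05; 0.67 in WT, adjusted p 2.19e-05). Other partners lay below their DMSO level in E545K with palbociclib, without overlap. FURIN had 33.4 ± 2.83 FPKM, against 44.6 ± 3.56 in DMSO. RHBDF1 had 11.8 ± 1.74 FPKM, against 17.3 ± 0.18, and TIMP2 17.2 ± 0.07, against 27.7 ± 0.10. In conditioned medium RHBDF1 had 9.64 ± 2.43 FPKM in WT, against 34.7 ± 1.23 in DMSO (-2.06, adjusted p 1.07e-08), and RHBDF2 had 5.65 ± 0.87, against 1.55 ± 0.08 (1.09, adjusted p 1.33e-07). TIMP3 in E545K had 0.25 ± 0.08 FPKM in conditioned medium, against 2.99 ± 0.09 (-1.73, adjusted p 7.16e-09). Of 12607 tested genes 6537 were higher and 2346 lower with conditioned medium in WT, and 4090 and 3133 in E545K. Counts over the partner list are not given for conditioned medium, and the WT values there depend on the label of those libraries. In the second table TIMP3 was higher in H1047R than in E545K under palbociclib, at 9.61 ± 3.86 against 0.36 ± 0.22 FPKM (2.97, adjusted p 2.05e-05). The 2 lines overlapped under palbociclib in the first table, where TIMP3 had 2.65 ± 0.42 FPKM in H1047R and 2.62 ± 0.08 in E545K.

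The ERK pathway acts downstream of EGFR, and 15 genes known as its output were all tested. In DMSO 3 were higher and 9 lower in H1047R than in WT (2 and 11 with quantile normalization, 2 and 12 with median-centring), and 4 higher and 6 lower in E545K (3 and 8, and 2 and 8). Of all tested genes 49.9% were higher and 17.5% lower in H1047R, and 48.4% and 10.4% in E545K. DUSP5, a phosphatase that acts on nuclear ERK, had 61.6 ± 5.12 FPKM in H1047R and 178 ± 3.87 in E545K, against 378 ± 2.51 in WT (-2.86, adjusted p 8.66e-11, and -1.33, adjusted p 6.7e-07). IER3 had 80.2 ± 6.68 and 118 ± 6.68 FPKM, against 264 ± 1.90 (-1.97, adjusted p 4.59e-09, and -1.42, adjusted p 4.98e-07), while MYC, a transcription factor, was higher in both lines (1.12, adjusted p 3.62e-09, and 0.53, adjusted p 1.88e-06). DUSP5 and IER3 thus had the order of AREG in DMSO, H1047R lowest and WT highest. By group mean FOSL1 and SPRED2 had it too, and the other genes of the list did not. PHLDA1, SPRY2 and SPRY4 were lowest in E545K and highest in WT. DUSP4, DUSP6, ETV4, ETV5 and EPHA2 were highest in E545K and lowest in H1047R. MYC and SPRED1 were highest in H1047R, and EGR1 in E545K, with WT lowest for each. With palbociclib the counts were 6 higher and 3 lower in H1047R, 2 and 8 in E545K, and 2 and 4 in WT, where quantile normalization gave 0 and 6 and median-centring 0 and 9. Of all tested genes 19.5% were higher and 19.8% lower in H1047R, 32.9% and 19.3% in E545K, and 27.2% and 6.77% in WT. In conditioned medium they were 1 and 9 in H1047R, 2 and 11 in E545K, and 3 and 8 in WT (2 and 10, and 2 and 11). The shares of all tested genes were 8.65% higher and 5.97% lower in H1047R, 32.4% and 24.9% in E545K, and 51.9% and 18.6% in WT. DUSP5 had 35.1 ± 7.40 FPKM in WT in conditioned medium, against 378 ± 2.51 in DMSO (-3.70, adjusted p 6.35e-12).

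Of the ERK output genes in the second table, 9 of 15 were higher and 2 lower in H1047R than in E545K under palbociclib, where 21.5% of all tested genes were higher and 30.1% lower. PHLDA1 had 294 ± 4.51 FPKM in H1047R, against 72.4 ± 1.27 in E545K (2.05, adjusted p 2.86e-08), and FOSL1, an AP-1 subunit, had 231 ± 12.2, against 52.6 ± 2.76 (2.16, adjusted p 1.86e-07). With erlotinib 5 of these genes were higher and 1 lower in E545K, where 7.1% of all tested genes were higher and 9.11% lower, among them PHLDA1 at 98.3 ± 0.38 FPKM, against 72.4 ± 1.27 (0.44, adjusted p 0.000736), and 1 was higher in H1047R (3.01% of all tested genes), DUSP5 at 96.6 ± 6.04, against 65.5 ± 17.6 (0.61, adjusted p 0.0442).

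Across libraries the members varied with each other as follows, given as a description, since libraries of 1 group and 1 line are not independent. Over the 18 libraries of the first table AREG followed HBEGF (Pearson r = 0.88 on the log2 scale) and ran against BTC (r = -0.83), and it bore little relation to EREG (r = -0.17). Over the 8 libraries of the second table AREG followed EREG (r = 0.99) and ADAM17 (r = 0.98) and not HBEGF (r = 0.19), and these libraries fall into 2 sets, the H1047R and the E545K line. The genes most like AREG over the 18 libraries were GADD45A (r = 0.99), MICA (0.99) and TIPARP (0.98), and the same pairs had r = 0.93, 0.98 and 0.95 over the 8. Those most like HBEGF were GFPT1, S100P and JUP (0.96, 0.94 and 0.93, and 0.51, 0.59 and 0.36 over the 8). For BTC they were LMBR1, NMI and SIAE (0.98, 0.98 and 0.97), whose r over the 8 libraries was -0.21, 0.12 and -0.22. Over the 8, BTC spanned only 9.57 to 10.7 FPKM, and ADAM10, named below, 23.3 to 27.7, so their r there rests on small differences. EREG was nearest to TWF1 (0.87, and 0.28 over the 8), TGFA to FBRS (0.93 and 0.38), ADAM10 to UBN2 (0.95 and -0.42) and ADAM17 to TBC1D3E (0.93 and 0.17), a member of a family of near-identical copies whose reads may be shared.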

How the data were processed

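RNA from LoVo cells was sequenced after oligo(dT) selection, per the labels' protocols. The deposited values are FPKM per gene, with 2 decimals, in 1 table of 18 libraries and 1 of 8, per the file headers. HISAT2 2.1.0, Bowtie2 2.3.4.3, RSEM 1.3.1, DESeq2 1.4.5 and GRCh38 (hg38) are named, without their roles, per the submitters' processing notes. Read depth is unknown, so no counting interval is given.

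From these values log2(FPKM + 1) was computed, and genes with at least 1 FPKM in at least 2 libraries were tested, 12607 and 12463 genes. Each table was fitted apart with limma 3.58.1 (R 4.3.3), with an intensity trend and 1 coefficient per group. The fits had 9 and 4 residual degrees of freedom, to which moderation contributed 5.58 and 4.30. P-values are for both directions, adjusted with the Benjamini-Hochberg method over all tested genes of a comparison and called below 0.05. Lone samples left by leaving out a replicate were assumed to vary like the other groups. The fit was tested on simulated data. The 9 members, the lists and the rules were chosen with earlier results of these data known. All 9 members were named, and from each list up to 4 genes by smallest adjusted p. Likeness is the Pearson r of log2 values, with the 3 highest genes per member, of which the text names 1 for EREG, TGFA, ADAM10 and ADAM17. Promoters are RefSeq windows (GRCh38.p14) for all 9 members, and coding stretches come from GENCODE v29 transcripts read with Biopython 1.88. Figures come from matplotlib 3.10.9 under Python 3.11.15. The alternatives were a pseudocount of 0.1, no filter, quantile normalization, median-centring, only the groups compared, a replicate block, and leaving out each replicate.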

Additional observations from a re-analysis of the deposited data

Results flagged for a closer look

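Responses that differed between lines by the limma test of the difference are listed here as log2 differences, not centred on the median gene. For palbociclib, H1047R minus WT, they were 0.70 for AREG, 0.72 for HBEGF, -0.83 for BTC and -0.76 for ADAM10. For palbociclib, E545K minus WT, they were 0.61 for EREG and -0.51 for TGFA. For conditioned medium, H1047R minus WT, they were 1.53 for AREG, -0.45 for EREG, 1.05 for HBEGF, -1.45 for BTC and -0.47 for ADAM17. For conditioned medium, E545K minus WT, they were 1.00 for AREG, 1.35 for HBEGF and 0.48 for BTC. For erlotinib, H1047R minus E545K, the difference was 0.41 for AREG. The mean levels behind the largest of these were 84.8 FPKM for AREG in H1047R cells in conditioned medium, against 119 in DMSO, and 113 in WT cells in conditioned medium, against 458 in DMSO.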

How the results depend on the processing

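Counts of called members changed by more than 1.5 times as follows. For H1047R against WT, 5 became 3 in conditioned medium in place of DMSO, and for E545K against WT, 6 became 3 with quantile normalization, 3 under palbociclib and 3 in conditioned medium, the last pair of settings chosen after seeing the data. In fits limited to the groups compared, 5 became 1 for palbociclib in H1047R, 3 became 1 for conditioned medium in H1047R, 4 became 1 for the palbociclib response of H1047R minus WT, 1 became 0 for erlotinib in H1047R, and 1 became 3 for erlotinib in E545K. With quantile normalization and with median-centring 2 became 4 for conditioned medium in E545K, and 1 became 3 for erlotinib in H1047R. For E545K against WT under palbociclib, median-centring gave 1 higher and 4 lower in place of 1 and 2. With no filter 2 became 1 for the palbociclib response of E545K minus WT, and 1 became 0 for the erlotinib response. The replicate block also gave 0 in place of 1 there (AREG, adjusted p 0.0694), and gave counts within 1.5 times for the other 16 comparisons. Replicate numbers did not pair the samples: same-numbered deviations correlated at -0.56 to 0.55 over 36 pairs of groups in the first table (15 above 0.1) and at -0.10 to 0.03 over 6 in the second.

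Leaving out 1 replicate at a time gave 3 to 5 called members for H1047R against WT in DMSO, 3 to 5 for palbociclib in H1047R, 0 to 3 for conditioned medium in H1047R, 3 to 5 for conditioned medium in WT, 1 to 2 for the palbociclib response of E545K minus WT and 3 to 5 for the conditioned-medium response of H1047R minus WT. It gave 0 to 3 for H1047R against E545K under palbociclib in the first table, and 0 to 3, 0 to 1 and 0 to 3 for erlotinib in H1047R, in E545K and for their difference. Counts over all tested genes moved by more than 1.5 times under other settings. Against WT in conditioned medium in place of DMSO, 8492 became 1056 (H1047R) and 7407 became 4270 (E545K). In fits limited to the groups compared, 4951 became 480 (palbociclib, H1047R), 1844 became 605 (conditioned medium, H1047R), 2845 became 288 (palbociclib response, H1047R minus WT; 1851 with quantile normalization), 2053 became 339 (H1047R against E545K, first table), 1167 became 115 (erlotinib, H1047R; 683 with no filter) and 2020 became 3583 (erlotinib, E545K). The erlotinib response had 270, against 107 with no filter and 141 with the replicate block. Leaving out 1 replicate at a time, they did so for palbociclib in H1047R (2732 to 6780) and in WT (4287; 2616 to 2725), conditioned medium in H1047R (686 to 1518), the palbociclib response of H1047R minus WT (1268 to 5562), H1047R against E545K in the first table (779 to 5134), erlotinib in H1047R (201 to 3795) and E545K (512 to 694), and the erlotinib response (34 to 2079).

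The log2 change, not centred on the median gene, changed sign in these cases. For H1047R against WT ADAM10 became -0.39 under palbociclib and -0.0033 in conditioned medium, and ADAM17 became -0.0092 after median-centring and -0.13 in conditioned medium. For E545K against WT EREG became 0.26 and TGFA -0.0359 under palbociclib, and HBEGF 0.59 in conditioned medium. For conditioned medium in WT EREG became -0.31 after median-centring, and ADAM17 -0.0375 after quantile normalization and -0.0662 after median-centring. TGFA in the erlotinib response ran from -0.33 to 0.32 over the left-out replicates. The cause of these changes was not tested.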

Other observations

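The genes beside the EPGN, EREG, AREG and BTC block on chromosome 4 include the chemokine genes CXCL2, CXCL3 and CXCL5, whose products attract neutrophils. Of 5 protein-coding genes on each side, 7 of 10 were tested. In DMSO 5 were higher and 0 lower in H1047R than in WT (3 and 2 with quantile normalization and with median-centring), and 1 was higher and 4 lower in E545K (0 and 5, and 0 and 4). Of all tested genes 49.9% were higher and 17.5% lower in H1047R, and 48.4% and 10.4% in E545K. CXCL2 had 37.0 ± 3.22 FPKM in H1047R and 6.11 ± 0.34 in E545K in DMSO, against 10.4 ± 0.98 in WT (SD, n = 2 each), so that H1047R was higher than WT (relative log2 change 1.48, adjusted p 1.66e-08) and E545K lower (-0.93, adjusted p 0.000243). With palbociclib CXCL2 rose to 53.9 ± 2.04 FPKM in E545K, against 6.11 ± 0.34 in DMSO (2.87, adjusted p 2.6e-10), and to 68.9 ± 7.35 in H1047R, against 37.0 ± 3.22 (0.90, adjusted p 8.01e-05). In WT it fell to 4.33 ± 0.02 FPKM, against 10.4 ± 0.98 (-1.24, adjusted p 1.62e-05). In conditioned medium it rose in E545K, to 50.4 ± 2.52 FPKM (2.81, adjusted p 2.52e-10), and in WT, to 35.4 ± 8.09 (1.36, adjusted p 1.96e-08). In H1047R in conditioned medium it had 40.5 ± 0.93 FPKM, against 37.0 ± 3.22 in DMSO. CXCL3 moved in the same direction as CXCL2 in each of these comparisons. With erlotinib CXCL3 had 123 ± 10.0 FPKM in H1047R, against 154 ± 4.59 with palbociclib alone (-0.29, adjusted p 0.0147), and 56.7 ± 0.66 in E545K, against 101 ± 0.13 (-0.82, adjusted p 0.000235). CXCL2 had 58.3 ± 9.07 FPKM with erlotinib in H1047R, against 54.7 ± 2.29, and 25.0 ± 0.32 in E545K, against 41.3 ± 0.16.

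The other ADAM proteases of the fixed list, ADAM8, ADAM9, ADAM12, ADAM15 and ADAM19, had 3 of 5 tested. In DMSO 1 was lower in H1047R than in WT and 2 were higher in E545K (3 lower in H1047R and 1 lower in E545K with median-centring), with median relative log2 changes of -0.40 and 0.09. Of 12607 tested genes 6286 were higher and 2206 lower in H1047R, and 6096 and 1311 in E545K. With palbociclib 1 was higher and 1 lower in H1047R, 2 were lower in E545K and 1 was higher in WT (0 with either other scaling). Of 12607 tested genes 2458 were higher and 2493 lower with palbociclib in H1047R, 4145 and 2434 in E545K, and 3434 and 853 in WT.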
